A study of Homo sapiens with 12 samples.

Results

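PPARGC1A, PPARGC1B, PPARA, PPARD, ESRRA, ESRRB, ESRRG, TFAM, NRF1 and PERM1 encode a regulatory circuit of energy metabolism, and their transcripts were followed through cardiac differentiation of human pluripotent stem cells. The 10 genes were taken by symbol from a table of 61806 genes, and 9 of them were abundant enough to be tested among 19505 genes. PERM1 was not. Bulk RNA-seq was carried out on H1, an established human embryonic stem cell line of wild-type genotype, after induction toward mesendoderm. NP-IWP2 cells were never passaged (static culture) and received IWP2, an inhibitor of WNT secretion. P-DF cells were lifted and replated (passaged) on Day 2, then left to differentiate spontaneously in DF medium, the basal medium of all groups. P-IWP2 cells were replated on Day 2 and were also given IWP2. P-DF thus differs from NP-IWP2 in replating and in the lack of IWP2. These cannot be told apart in that comparison, as no static group without IWP2 is among the libraries. P-IWP2 against NP-IWP2 differs in replating with IWP2 given to both. Each treatment had 2 libraries on Day 12 and 2 on Day 16, 12 in all. All came from a single cell line, and the labels do not say that libraries of a group came from separate differentiations, so p-values measure only the spread between these libraries.

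PGC-1α and PGC-1β, encoded by PPARGC1A and PPARGC1B, are coactivators without a DNA-binding domain. They are recruited by nuclear receptors, among them the peroxisome proliferator-activated receptors (PPARs), which sense fatty acids, and the estrogen-related receptors (ERRs), orphan receptors that do not respond to estrogen. In the heart these receptors drive genes of fatty acid oxidation and oxidative phosphorylation. NRF1 is a transcription factor of nuclear genes for mitochondrial proteins. TFAM packages mitochondrial DNA and activates its transcription, and PERM1 is a muscle protein that acts with PGC-1 and ERR.

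Promoter sequence is shown because several of these genes are described as targets of the others. RefSeq windows from 250 bases before to 50 bases after a gene start (GRCh38.p14) were found for 9 of the 10 genes, 21 windows in all. An NRF1-type motif, GCGCANGCG, was searched on both strands. It was found in 7.52% of all 35116 windows and in 3 windows of these genes, those of TFAM, ESRRA and PPARA, beginning 62, 93 and 20 bases before the start. In the following stretches, written 5′ to 3′ on the gene's strand, capitals mark the match, which in TFAM is read on the other strand. PPARA also matches on the other strand, shifted by 1 base.

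TFAM, chr10:58385338-58385366, plus strand: cgctctcccgCGCCTGCGCcaattccgcc

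ESRRA, chr11:64305421-64305449, plus strand: tcgtccgggcGCGCAGGCGccgcccgccc

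PPARA, chr22:46150758-46150786, plus strand: gggctgggcgGCGCATGCGcggggcccgg

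The receptor motif AAGGTCA, also searched on both strands, was found in 3.92% of all windows and in 1 window of these genes, at an internal start of ESRRG, 61 bases before it. Capitals again mark the match.

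ESRRG, chr1:217077036-217077064, minus strand: aattacggtaaAAGGTCAtgtgatttggt

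The longer ERR element TNAAGGTCA, which contains the former, and the cAMP response element TGACGTCA were not found in the 21 windows, and were in 0.951% and 1.85% of all windows. The ESRRA stretch lies before the start of the gene as the table gives it, the TFAM stretch runs across that start, and those of PPARA and ESRRG lie inside the gene. These are matches of letters, not measured binding sites.

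Library totals lay between 14885589 and 19176239 counts. The Day 12 P-IWP2 pair stood apart: between replicates 5 and 6 the root mean square difference was 1.19 on the log2 CPM scale (counts scaled to the library total), against 0.370 to 0.573 in the other pairs. The 12 cardiomyocyte markers summed to 2621 FPKM (counts scaled to exon length and library total) in replicate 5 and 5801 FPKM in replicate 6, and the 12 epicardial and stromal markers to 807 and 31.9 FPKM. Because all groups share an estimate of spread, this pair bears on every test. The results shown for the regulators and their lists use all 12 libraries and, where the call or the count changed, are also given without replicate 5. Some Day 12 calls of single regulators are named only where the regulators are counted together. The Day 12 P-IWP2 group is then 1 library, assumed to vary like the other groups. Dropping replicate 6 in its place gave 5 and 6 regulators called for P-DF on Days 12 and 16, the same numbers as dropping replicate 5. FPKM are scaled to library totals, whereas fold changes are on the TMM scale of edgeR. When library totals replaced TMM, all genes had a median of -0.25 (log2) for P-DF and -0.31 for P-IWP2 against NP-IWP2 on Day 16, so small Day 16 fold changes can differ in sign from the FPKM.

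Cardiac identity was measured alongside, since a bulk value cannot tell more cells of a type from more RNA per cell. The cardiomyocyte markers were present at every time. On Day 12 they summed to 5308 to 6010 FPKM in NP-IWP2 and to 5908 to 5968 in P-DF, which overlapped. Summed levels on Day 16 were 3384 to 4054 FPKM in NP-IWP2, 6490 to 7067 in P-DF and 8637 to 9454 in P-IWP2. MYL7, an atrial myosin light chain, averaged 1705 FPKM in Day 16 NP-IWP2, 3693 for P-DF and 5341 for P-IWP2. NP-IWP2 libraries also held hepatic and endodermal transcripts: the 15 markers of that list, led by AFP and APOA1, summed to 485 to 1011 FPKM there and to 6.10 to 20.1 FPKM in passaged libraries, where 14 of the 15 were under 1 FPKM in each library and 2 to 10 were at 0. The epicardial and stromal list, led by COL3A1 and COL1A1, summed to 729 to 1265 FPKM in NP-IWP2 and 19.8 to 31.9 FPKM in passaged libraries other than replicate 5. Endothelial markers, led by KDR, summed on Day 12 to 212 to 222 FPKM in NP-IWP2, 161 to 224 in P-DF, and 33.0 and 233 in P-IWP2. On Day 16 they summed to 62.1 to 63.5 FPKM in NP-IWP2 and 10.2 to 15.1 in passaged libraries, and their median log2 fold change in P-DF was -6.71 on Day 12 and -4.03 on Day 16. Cell cycle markers summed on Day 12 to 104 to 115 FPKM in NP-IWP2, 69.0 to 85.3 in P-DF and 82.25 to 113 in P-IWP2. Their Day 16 sums were 142 to 152 FPKM in NP-IWP2, 104 to 122 in P-DF and 110 to 156 in P-IWP2. On each day NP-IWP2 lay above P-DF without overlap. Skeletal muscle markers, led by CKM, summed on Day 16 to 100 to 145 FPKM in NP-IWP2 and 170 to 237 in passaged libraries. Nearly all of this was CKM, whose Day 16 means were 120 FPKM for static cells, 229 for P-DF and 183 for P-IWP2. MYOD1 reached at most 0.04 FPKM and MYF5 was at 0 throughout. Of this list 4 markers were tested, and their median Day 16 log2 fold change was -0.16 for P-DF and -0.17 for P-IWP2. In each comparison 2 of the 4 were above 0, so the list did not rise as a set. The part of these differences in the results below was not tested.

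Of the coactivators, PPARGC1A (chr4:23755041-23904089, minus strand) was by far the more abundant. On Day 12 it stood at 19.2 and 17.7 FPKM in NP-IWP2, 25.0 and 26.1 for P-DF, and 18.5 and 25.0 for P-IWP2. On Day 16 it stood at 11.6 and 10.9 FPKM in NP-IWP2, 14.4 in both P-DF libraries, and 13.8 and 14.1 in P-IWP2. Passaged libraries lay above the static ones on Day 16 without overlap and, on Day 12, for P-DF. The log2 fold change on Day 16 was 0.59 (SE 0.192) for P-DF and 0.59 (SE 0.192) for P-IWP2, with adjusted p of 0.0677 and 0.0640 by edgeR's quasi-likelihood test. Without replicate 5 both passed, at adjusted p of 0.000895 and 0.000863. On Day 12 the differences were 0.56 (SE 0.191, adjusted p = 0.137) for P-DF and 0.24 (SE 0.191, adjusted p = 0.745) for P-IWP2. Without replicate 5 they were 0.55 (adjusted p = 0.00221) and 0.53 (adjusted p = 0.0132), the latter resting on 1 library, and leaving out single libraries took it from -0.14 to 0.53.

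PPARGC1B (chr5:149730298-149855022, plus strand), the second coactivator, ran at a small part of that level. It measured 1.86 and 1.70 FPKM in Day 12 NP-IWP2, 2.06 and 2.19 for P-DF, and 0.36 and 1.74 for P-IWP2. On Day 16 the values were 0.78 and 0.93 FPKM in NP-IWP2, 1.40 and 1.36 for P-DF, and 1.21 and 1.07 for P-IWP2. The value of 0.36 is that of replicate 5 and rests on 72 counts, the fewest in any library. On Day 16 both passaged groups lay above NP-IWP2, with log2 fold changes of 0.92 (SE 0.557, adjusted p = 0.293) and 0.69 (SE 0.556, adjusted p = 0.421), and without replicate 5 both passed (adjusted p = 0.000128 and 0.00116, edgeR). PPARGC1A made up 91.2% to 95.8% of the summed FPKM of these 2 coactivator genes in the 6 group means, with no other coactivator in the sum.

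**Figure D1:**
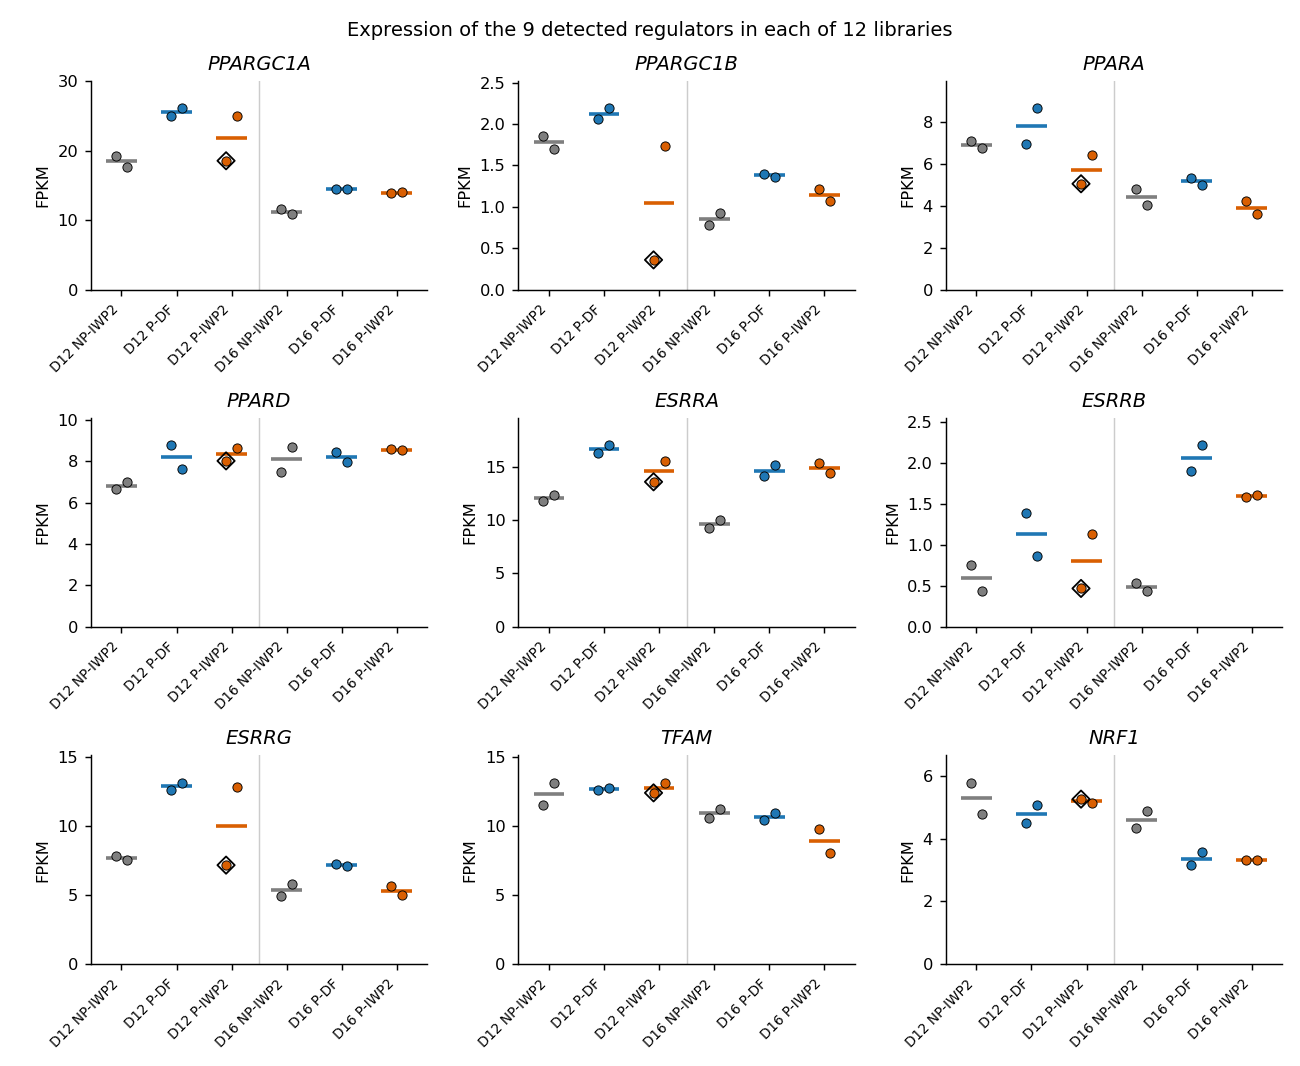
FPKM (vertical axis, from 0) of the 9 detected regulators in 12 libraries, as points by day and treatment (gray NP-IWP2, blue P-DF, orange P-IWP2), with the mean of each pair as a bar and Day 12 P-IWP2 replicate 5 ringed by a diamond. ESRRA is between 9.21 and 9.99 FPKM in Day 16 NP-IWP2 and between 14.08 and 15.34 in the 4 passaged libraries of that day.

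Of the ERRs, ESRRA (chr11:64305497-64316743, plus strand), which encodes ERRα, was the most abundant, and it was higher in passaged than in static cells on Day 16. Day 12 levels were 11.7 and 12.4 FPKM in NP-IWP2, 16.25 and 16.98 for P-DF, and 13.6 and 15.6 for P-IWP2. Day 16 levels were 9.21 and 9.99 FPKM in NP-IWP2, 14.1 and 15.1 for P-DF, and 15.3 and 14.4 for P-IWP2. The FPKM of static and passaged libraries did not overlap on either day. On Day 16 ESRRA rose by 0.84 with P-DF (SE 0.136, adjusted p = 0.00494) and by 0.91 with P-IWP2 (SE 0.136, adjusted p = 0.00333, edgeR), which is 1.79-fold and 1.87-fold. The P-DF call was lost without Day 16 P-DF replicate 4 (adjusted p = 0.0614), and over all alternatives the change ranged from 0.56 to 0.90 in P-DF and from 0.58 to 0.92 in P-IWP2. On Day 12 the P-DF difference was 0.55 (SE 0.135, adjusted p = 0.0557), and without replicate 5 it was 0.55 (adjusted p = 0.00109).

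The last 284 bases of ESRRA overlap TRMT112 on the opposite strand, which had 506 to 946 counts a library. Without a stated strand setting, reads in that stretch cannot be assigned. TRMT112 itself gave log2 fold changes of -0.16 (adjusted p = 0.427) in P-DF and 0.14 (adjusted p = 0.492) in P-IWP2 on Day 16. The processed pseudogenes ESRRAP1 and ESRRAP2 had at most 1 count in any library.

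ESRRB (chr14:76310712-76501837, plus strand), best known for its part in pluripotent cells, was the least abundant ERR and had the largest fold change among the 9 regulators. It measured 0.76 and 0.44 FPKM in Day 12 NP-IWP2, 1.39 and 0.87 for P-DF, and 0.47 and 1.14 for P-IWP2. On Day 16 it measured 0.54 and 0.44 FPKM in NP-IWP2, 1.91 and 2.22 for P-DF, and 1.59 and 1.61 for P-IWP2. The 4 passaged Day 16 libraries all lay above every NP-IWP2 library. ESRRB rose on Day 16 by 2.29 in P-DF (SE 0.472, adjusted p = 0.0132) and by 1.97 in P-IWP2 (SE 0.470, adjusted p = 0.0219, edgeR), or 4.91-fold and 3.92-fold. Leaving out any of the 4 libraries compared ended either call (adjusted p up to 0.113 for P-DF and 0.162 for P-IWP2), while the change stayed between 2.11 and 2.51 and between 1.79 and 2.19. On the log2(FPKM + 1) scale of limma, which compresses low values, it was 1.04 (adjusted p = 0.0148) and 0.80 (adjusted p = 0.0324). The summed pluripotency markers in Day 16 libraries were 20.1 and 21.6 FPKM in NP-IWP2, 8.43 and 11.7 for P-DF, and 27.6 and 29.4 for P-IWP2, and most of the P-IWP2 sum was TDGF1, at 25.1 ± 1.06 FPKM (SD, n = 2). Of the 7 pluripotency markers tested, 4 fell in Day 16 P-DF (median -4.57) and 3 in P-IWP2 (median -2.44), none rose, and 0 and 1 of the 7 were above 0. Of all genes tested, 15.3% and 17.1% were called. Without replicate 5, 5 fell in each comparison and 1 rose in P-IWP2, where 32.4% and 34.8% of all genes were called. TDGF1, the most abundant, differed by -0.07 (adjusted p = 0.971) with P-DF and 1.61 (adjusted p = 0.322) with P-IWP2. LIN28A, the next, fell by 4.57 on the log2 scale in P-DF (adjusted p = 0.000793) and differed by -1.24 in P-IWP2 (adjusted p = 0.0530).

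ESRRG (chr1:216503246-217137755, minus strand), which encodes ERRγ, an activator of oxidative genes in the perinatal heart, was highest in passaged cells on Day 12. It measured 7.82 and 7.57 FPKM in Day 12 NP-IWP2, 12.6 and 13.2 for P-DF, and 7.17 and 12.9 for P-IWP2. On Day 16 it measured 4.91 and 5.81 FPKM in NP-IWP2, 7.28 and 7.09 for P-DF, and 5.65 and 4.97 for P-IWP2. On Day 12 replicate 5 thus sat at the static level and replicate 6 at the P-DF level. The P-DF difference was 0.83 on Day 12 (SE 0.262, adjusted p = 0.111) and 0.66 on Day 16 (SE 0.263, adjusted p = 0.121), and without replicate 5 it was 0.83 (adjusted p = 2.56e-05) and 0.66 (adjusted p = 0.000118). For P-IWP2 the Day 16 difference was 0.26 (SE 0.262, adjusted p = 0.517), and 0.26 (adjusted p = 0.0407) without replicate 5, and -0.02 when library totals replaced TMM.

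The balance among the 3 ERR genes shifted with day and treatment. ESRRA made up 59.2% ± 2.04 (SD, n = 2) of the summed ERR FPKM in Day 12 NP-IWP2 and 54.2% ± 0.734 in P-DF, and on Day 16 it made up 62.2% ± 0.926 in NP-IWP2, 61.2% ± 0.990 for P-DF and 68.3% ± 0.453 for P-IWP2. ESRRG contributed 42.1% ± 0.532 in Day 12 P-DF and 24.4% ± 0.911 in Day 16 P-IWP2. ESRRB contributed 3.20% ± 0.689 in Day 16 NP-IWP2, 8.65% ± 0.619 for P-DF and 7.37% ± 0.457 for P-IWP2, without overlap between static and passaged libraries. The summed level itself was 15.5 ± 1.12 FPKM in Day 16 NP-IWP2, 23.9 ± 0.827 for P-DF and 21.8 ± 1.16 for P-IWP2. These shares are descriptions and were not tested.

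**Figure D2:**
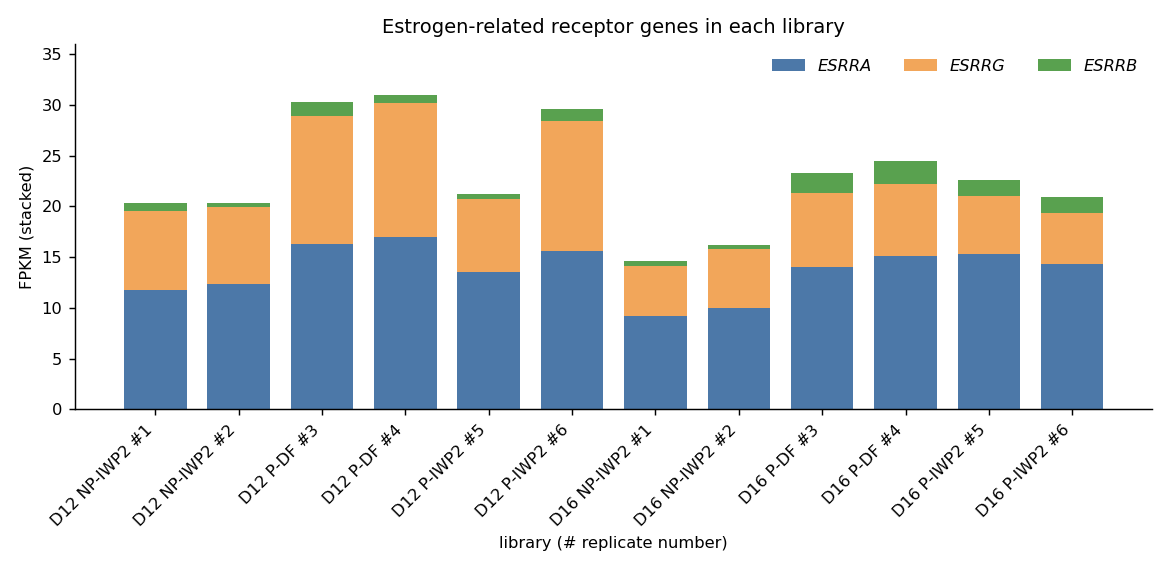
Stacked FPKM (vertical axis, from 0) of ESRRA, ESRRG and ESRRB in each of 12 libraries, labelled by day, treatment and replicate number. The summed level is 20.3 FPKM on average in Day 12 NP-IWP2 and 30.6 in Day 12 P-DF, and ESRRB is widest in the 4 passaged Day 16 libraries.

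Among the PPARs, PPARA (chr22:46150521-46243755, plus strand), the receptor of fatty acid oxidation genes, ranged from 3.62 to 8.65 FPKM. Its Day 16 difference was 0.45 in P-DF (SE 0.193, adjusted p = 0.144) and 0.09 in P-IWP2 (SE 0.193, adjusted p = 0.770, edgeR), and without replicate 5 only the former passed (adjusted p = 0.0174). PPARD (chr6:35342558-35428191, plus strand), the widely expressed PPAR, ranged only from 6.66 to 8.77 FPKM. Its Day 16 FPKM overlapped between groups, with 7.49 and 8.71 in NP-IWP2, 8.44 and 7.95 for P-DF, and 8.60 and 8.54 for P-IWP2. The Day 16 log2 fold change was 0.25 in P-DF (SE 0.137, adjusted p = 0.243) and 0.36 in P-IWP2 (SE 0.137, adjusted p = 0.0980), the latter passing without replicate 5 (adjusted p = 0.0215). PPARA and PPARD were near equal in Day 12 NP-IWP2, at 49.9% ± 1.58 and 49.2% ± 1.63 of the summed PPAR FPKM, and PPARD made up 68.5% ± 2.06 in Day 16 P-IWP2. PPARG, the adipocyte PPAR, gave a mean of at most 0.901% in any group.

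TFAM (chr10:58385345-58399220, plus strand) and NRF1 (chr7:129611720-129757082, plus strand), which link the nuclear program to mitochondrial DNA, gave no call in any of the comparisons, with or without replicate 5. TFAM ranged from 8.07 to 13.2 FPKM, and its Day 16 log2 fold change was 0.20 in P-DF (SE 0.123, adjusted p = 0.291) and -0.02 in P-IWP2 (SE 0.123, adjusted p = 0.937). The P-DF value was -0.03 with total counts. NRF1 ranged from 3.17 to 5.79 FPKM and was the only regulator with a fold change below 0 in P-DF on both days, at -0.06 (SE 0.154, adjusted p = 0.846) and -0.22 (SE 0.155, adjusted p = 0.368). Its Day 16 FPKM were 4.33 and 4.89 in NP-IWP2, 3.17 and 3.56 for P-DF, and 3.32 and 3.33 for P-IWP2. The 95% interval of the Day 16 P-DF log2 difference ran from -0.57 to 0.13 for NRF1 and from -0.07 to 0.48 for TFAM.

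PERM1 (chr1:975198-982117, minus strand) was at the limit of detection, with 13 counts in all 12 libraries and 0 to 4 in each. The 4 counts were in Day 16 NP-IWP2 replicate 1. A count of 0 allows up to 3 counts, which is 0.156 to 0.202 CPM at these depths, covering counting error only. No difference in PERM1 was detectable at this depth. PERM1 also shares bases with PLEKHN1 on the opposite strand.

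Counted together, 2 of the 9 tested regulators rose and none fell in P-DF on Day 16, where 15.3% of all genes tested were called, 5.39% as higher. In P-IWP2 on Day 16 the same 2 genes, ESRRA and ESRRB, rose and none fell, where 17.1% of all genes were called, 7.15% as higher. DESeq2 called 3 regulators in Day 16 P-DF (18.4% of all genes) and 3 in Day 16 P-IWP2 (20.1%). On Day 12 edgeR called 0 regulators in P-DF (4.01% of all genes called) and 0 in P-IWP2 (1.66%), with 4 and 0 at an unadjusted p under 0.05, and DESeq2 called 2 and 0. The median log2 fold change of the 9 regulators was 0.35 in Day 12 P-DF and 0.59 in Day 16 P-DF, with 8 of 9 above 0 on each day, beside medians of all genes of -0.0035 and -0.02. It was 0.24 in Day 12 P-IWP2 and 0.36 in Day 16 P-IWP2, with 6 and 7 of 9 above 0. The P-DF and P-IWP2 comparisons share the NP-IWP2 libraries of each day and so are not independent of each other.

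Without replicate 5 the numbers of regulators that rose were 5 in Day 12 P-DF (21.9% of 20518 genes called, 8.25% as higher), 6 in Day 16 P-DF (32.4%, 14.4% as higher), 4 in Day 12 P-IWP2 (15%, 5.45% as higher) and 6 in Day 16 P-IWP2 (34.8%, 16.3% as higher), and none fell. In Day 16 P-DF the 6 were PPARGC1A, PPARGC1B, PPARA, ESRRA, ESRRB and ESRRG. In Day 16 P-IWP2 PPARD took the place of PPARA. In Day 12 P-DF the 5 were PPARGC1A, PPARD, ESRRA, ESRRB and ESRRG. Day 12 P-IWP2 then rests on 1 library, and its 4 were PPARGC1A (log2 difference 0.53), PPARD (0.43), ESRRA (0.46) and ESRRG (0.83).

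**Figure D3:**
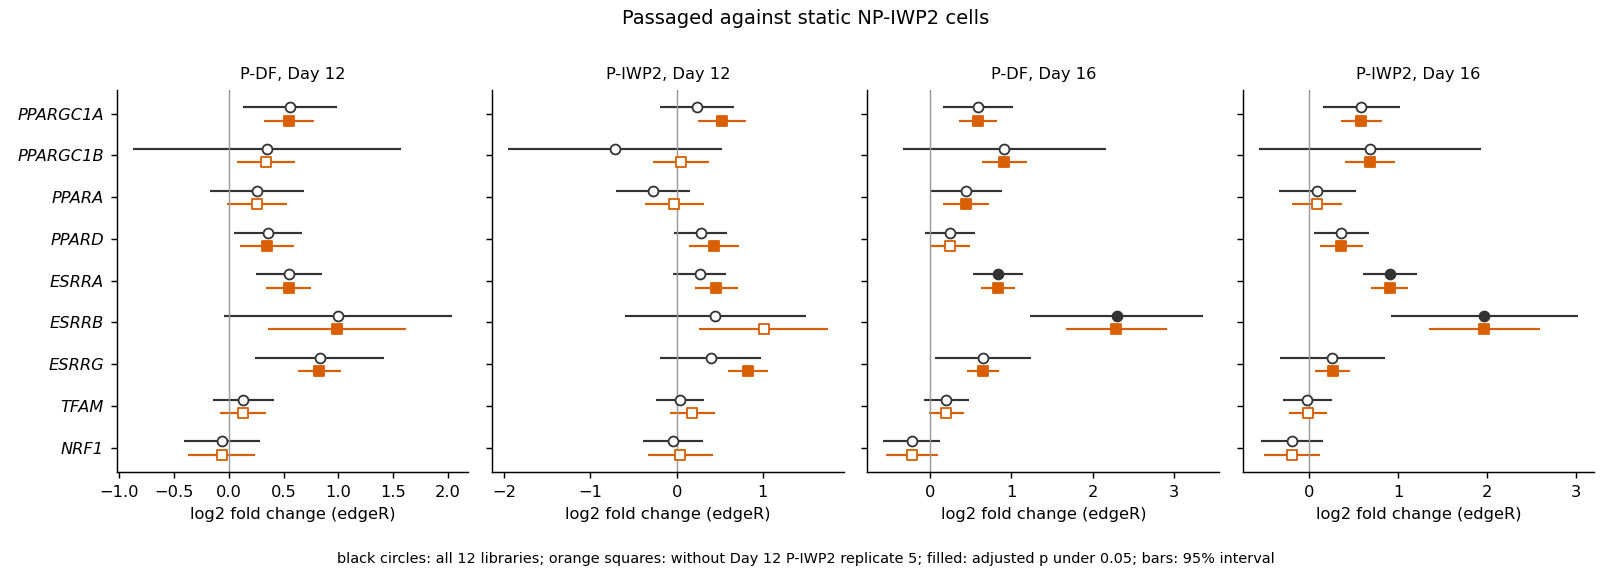
Log2 fold change (horizontal axis) of each regulator in passaged against static cells on each day, with its 95% interval, from all 12 libraries (black circles) and without Day 12 P-IWP2 replicate 5 (orange squares), filled where the adjusted p passes 0.05. ESRRA and ESRRB are filled in both Day 16 panels with all libraries. The intervals are narrower without replicate 5, except that of NRF1 in Day 12 P-IWP2.

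IWP2 in passaged cells was compared directly on Day 16. Between P-IWP2 and P-DF no regulator was called (0% of all genes called, none of the 9 at an unadjusted p under 0.05, and 0 by DESeq2). ESRRG gave the largest log2 difference of the 9, -0.39 (SE 0.262, adjusted p = 0.758), followed by PPARA with -0.36 (SE 0.193, adjusted p = 0.699). Without replicate 5 ESRRG was lower in P-IWP2 (-0.39, SE 0.0918, adjusted p = 0.0422), where 2.49% of all genes were called and 0.843% as lower. ESRRA differed by 0.07 (SE 0.134, adjusted p = 0.949) and PPARGC1A by -0.0022 (SE 0.191, adjusted p = 1).

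Mean FPKM of PPARGC1A, PPARA, ESRRG, TFAM and NRF1 were lower on Day 16 than on Day 12 in all 3 treatments. For PPARGC1A they went from 18.5 to 11.2 in NP-IWP2, from 25.5 to 14.4 with P-DF and from 21.8 to 13.95 with P-IWP2. On the TMM scale TFAM was level over time in P-DF (log2 difference 0.0089, SE 0.123). In NP-IWP2 the log2 differences were -0.60 (SE 0.191) for PPARGC1A, -0.94 (SE 0.555) for PPARGC1B, -0.53 (SE 0.192) for PPARA and -0.41 (SE 0.262) for ESRRG. None of the 9 passed (1.98% of all genes called), with 3 at an unadjusted p under 0.05 and 0 by DESeq2. Without replicate 5 these 4 fell and PPARD rose by 0.36 (adjusted p = 0.0448), where 17.1% of all genes were called, 9.23% as higher and 7.91% as lower.

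In P-DF PPARGC1A differed by -0.57 (SE 0.191, adjusted p = 0.0818), ESRRG by -0.58 (SE 0.262, adjusted p = 0.168) and ESRRB by 1.12 (SE 0.450, adjusted p = 0.130). Again edgeR called 0 of the 9 (13.6% of all genes called), with 2 at an unadjusted p under 0.05, and DESeq2 called 1. Without replicate 5 PPARGC1A, PPARGC1B and ESRRG fell and ESRRB rose by 1.13 (adjusted p = 0.00655), where 29.2% of all genes were called, 15.1% as higher and 14.1% as lower.

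In P-IWP2 PPARD rose by 0.44 (SE 0.137, adjusted p = 0.0412) and ESRRA by 0.43 (SE 0.134, adjusted p = 0.0438), where 27% of all genes were called and 12.9% as higher. Both calls rest on Day 12 replicate 5: without it the values were 0.29 (adjusted p = 0.148) and 0.23 (adjusted p = 0.170). They were also lost without any other library except Day 12 replicate 6, and with total counts they were 0.04 and 0.03. PPARGC1A differed by -0.25 (SE 0.191, adjusted p = 0.340) and ESRRG by -0.54 (SE 0.262, adjusted p = 0.144). Without replicate 5, with 1 Day 12 library left, the values were -0.54 (adjusted p = 0.00840) and -0.98 (adjusted p = 4.71e-05), whereas leaving out single libraries took them up to 0.13 and 0.10. Without replicate 5, 23.7% of all genes were called and 11.3% as lower.

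**Figure D4:**
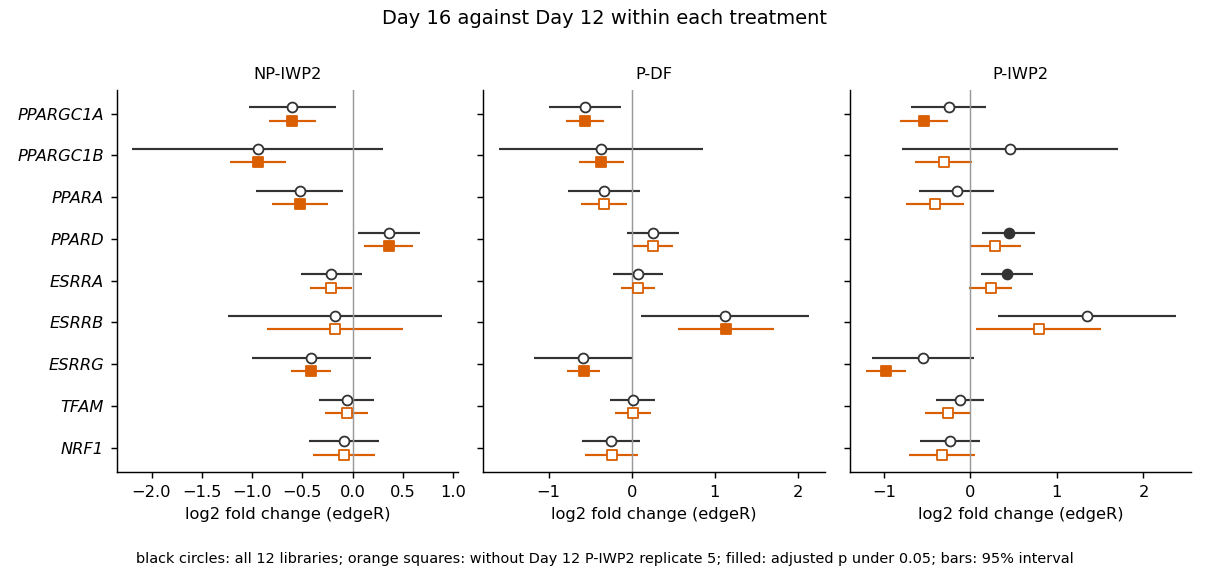
Log2 fold change (horizontal axis) from Day 12 to Day 16 of each regulator within each treatment, with its 95% interval, from all 12 libraries (black circles) and without Day 12 P-IWP2 replicate 5 (orange squares), filled where the adjusted p passes 0.05. PPARGC1A is at -0.60 in NP-IWP2 and -0.57 in P-DF, and ESRRG in P-IWP2 moves from -0.54 to -0.98 when replicate 5 is left out.

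Whether the difference of each passaged group from NP-IWP2 changed between days was tested as an interaction. No regulator was called for P-DF (0.482% of all genes called, none of the 9 at an unadjusted p under 0.05) or for P-IWP2 (1.84%, with 2 of the 9 at an unadjusted p under 0.05), and DESeq2 called 0 in both. ESRRB gave 1.3 (SE 0.652, adjusted p = 0.457) for P-DF and 1.52 (SE 0.656, adjusted p = 0.227) for P-IWP2, and ESRRA gave 0.29 (SE 0.191, adjusted p = 0.588) and 0.64 (SE 0.191, adjusted p = 0.110). ESRRG gave -0.13 (SE 0.370, adjusted p = 0.873) for P-IWP2. It was called without replicate 5 (-0.57, SE 0.143, adjusted p = 0.0290), with 1 library in the Day 12 P-IWP2 group, and in the other direction without replicate 6 (0.51, adjusted p = 0.0176), so its direction rests on which library of that pair is kept. Without replicate 5, 7.89% of all genes were called for P-IWP2 and 4.03% as lower. No regulator was called for P-DF without replicate 5 (7.62%), with 2 of the 9 at an unadjusted p under 0.05. The higher ESRRB level on Day 16 than on Day 12 in passaged cells is therefore not shown to differ from its course in static cells.

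Genes that work with the regulators were followed in 4 lists. Of 28 receptor partners and cofactors, 1 rose and 3 fell in P-DF on Day 16 (median 0.0026), and 1 rose and 3 fell in P-IWP2 (median -0.07), where 15.3% and 17.1% of all genes were called. Without replicate 5 the numbers were 3 and 7, and 2 and 7, where 32.4% and 34.8% of all genes were called. NR1H2, which encodes the liver X receptor LXRβ, rose by 0.47 (adjusted p = 0.0470) in P-DF, whereas RXRG, a retinoid X receptor and partner of PPARs, fell by 1.35 (adjusted p = 0.0339) and NR1H3, which encodes LXRα, fell by 1.08 (adjusted p = 0.0186). RXRG went from 32.0 ± 8.25 FPKM in Day 12 P-DF to 3.47 ± 0.509 on Day 16 (SD, n = 2), a fall of 2.95 on the log2 scale (adjusted p = 0.00183).

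A list of 20 genes covered the AMPK and calcineurin pathways, among them kinases and phosphatases that act upstream of PGC-1α. On Day 16, 3 of the 20 rose and 1 fell in P-DF (median 0.13), and 5 rose and 3 fell in P-IWP2 (median 0.07). Of all genes tested, 15.3% and 17.1% were called. Without replicate 5 the numbers were 5 and 2, and 7 and 3, where 32.4% and 34.8% of all genes were called. PRKAA2, a catalytic AMPK subunit of muscle and heart, averaged 6.84 ± 1.24 FPKM in NP-IWP2, 17.5 ± 0.0566 for P-DF and 17.6 ± 1.58 for P-IWP2 on Day 16. It rose by 1.58 in P-DF (SE 0.161, adjusted p = 0.000595) and 1.63 in P-IWP2 (SE 0.162, adjusted p = 0.000477). CAMK2D, the main cardiac calcium/calmodulin kinase, rose by 1.03 (adjusted p = 0.00415) and 1.18 (adjusted p = 0.00228). PPP3CA, a calcineurin catalytic subunit, fell by 0.74 (adjusted p = 0.00537) and 0.51 (adjusted p = 0.0214). The other catalytic subunits of AMPK and calcineurin in the list were not called in either comparison with all libraries.

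Of 16 genes that maintain or transcribe mitochondrial DNA, none rose and 1 fell in P-DF on Day 16 (median 0.20), and 1 rose and 1 fell in P-IWP2 (median 0.18). Of all genes tested, 15.3% and 17.1% were called in these 2 comparisons. Without replicate 5 the numbers were 3 and 1, and 4 and 1, where 32.4% and 34.8% of all genes were called. TOP1MT, the mitochondrial topoisomerase I, fell by 1.05 in P-DF (SE 0.218, adjusted p = 0.0135), from 1.34 to 0.550 FPKM.

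Of 30 tested ERR and PPAR target genes, 5 rose and 3 fell in P-DF on Day 16 (median 0.60, 24 of 30 above 0), and 7 rose and 2 fell in P-IWP2 (median 0.59, 22 of 30 above 0), beside medians of all genes of -0.02 and -0.03. The shares of all genes called were 15.3% (5.39% as higher) and 17.1% (7.15% as higher). Without replicate 5 the numbers were 19 and 5, and 16 and 5, where 32.4% (14.4% as higher) and 34.8% (16.3% as higher) of all genes were called. FABP3, the fatty acid-binding protein of heart muscle, averaged 68.5 ± 15.1 FPKM in NP-IWP2, 237 ± 8.51 for P-DF and 237 ± 23.8 for P-IWP2. It rose by 2.01 (SE 0.371, adjusted p = 0.00847) and 2.06 (SE 0.372, adjusted p = 0.00722). UCP2, an uncoupling protein homolog, rose by 1.95 (adjusted p = 0.00263) and 2.42 (adjusted p = 0.000918). CREB3L3, a hepatic transcription factor, fell from 1.42 FPKM in NP-IWP2 to 0.010 in P-DF (adjusted p = 0.00426). It moved with the hepatic markers, all 15 of which fell in both passaged groups on Day 16. The cardiomyocyte list itself had 4 genes higher and 1 lower of 12 in P-DF (median 0.76) and 3 higher and 2 lower in P-IWP2 (median 0.72). Without replicate 5 these were 9 and 1, and 9 and 2. The part of this in the target genes was not tested.

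**Figure D5:**
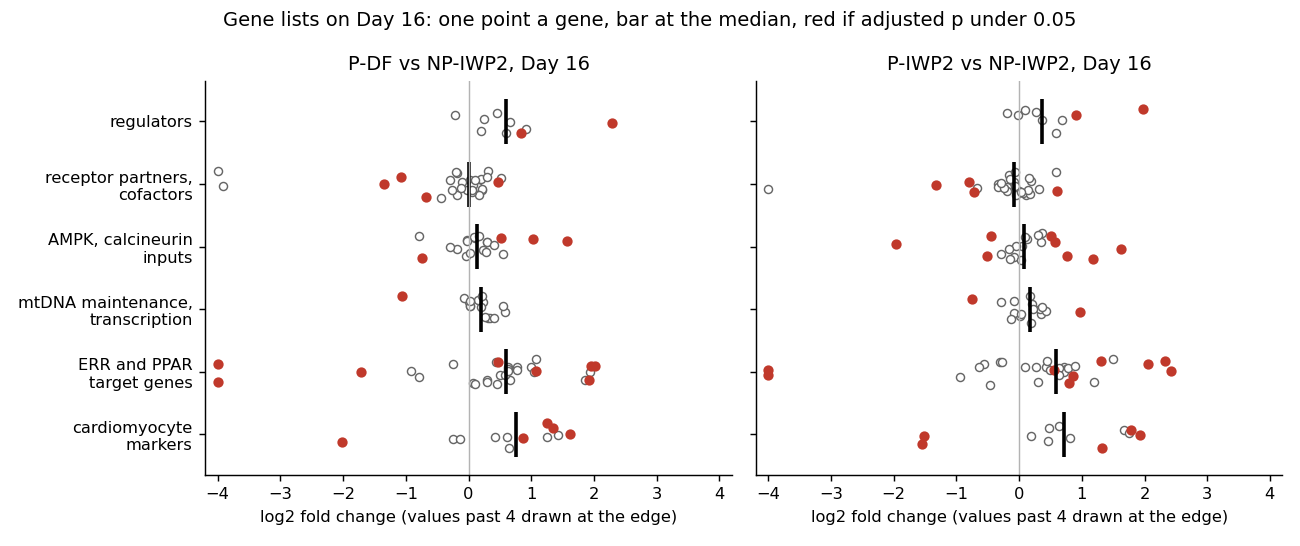
Log2 fold change (horizontal axis) in passaged against static cells on Day 16, a point for each tested gene of the regulators, the 4 lists of working partners and targets, and the cardiomyocyte markers, with the median as a bar and called genes in red. Values past 4 in size are drawn at the edge, and the target genes have medians of 0.60 and 0.59, the cardiomyocyte markers 0.76 and 0.72.

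Genes with a course most like a regulator were found by the root mean square difference of centered log2 CPM over 12 libraries, where smaller is more alike. For PPARGC1A they were NDRG2 (0.107), CHST11 (0.140) and UNC13B (0.142), beside a median of 0.527 over all tested genes. For ESRRA they were ANKRD13A (0.0807), OXR1 (0.0941) and GGA2 (0.114), beside a median of 0.506. For ESRRG they were CASP9 (0.148), MEIS1 (0.169) and WNK2 (0.170), beside 0.582. Like ESRRA, OXR1 averaged 5.65 FPKM in Day 16 NP-IWP2, 7.78 for P-DF and 8.07 for P-IWP2. All points share these 12 libraries and their scaling.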

How the data were processed

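RNA-seq of 12 libraries of H1 cells was used. The authors trimmed reads with cutadapt 1.9.1, aligned them to hg38 with HISAT2 2.0.1 and counted them per gene with HTSeq 0.6.1; the strand setting and the annotation release are not given in the sources used here. The deposited table holds these raw counts and the FPKM that the authors derived from them, from the exon length of each gene and the library total.

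Here the counts were analysed with edgeR 4.0.16 (R 4.3.3): TMM scaling, the filter filterByExpr, a model of 6 groups, the quasi-likelihood test and Benjamini-Hochberg adjustment over all 19505 genes tested, with a threshold of 0.05. Alternatives used DESeq2 1.42.0, limma 3.58.1 (voom with quality weights, and log2(FPKM + 1) for genes of mean FPKM of at least 1), other scalings, no filter, only the groups compared, a replicate block, and each library left out. In counts of 19505 genes simulated for P-DF against NP-IWP2 on Day 16, 27 of 100 genes changed 2-fold and 68 of 100 changed 4-fold were recovered. There were 2 false calls among the unchanged genes. Each gene was simulated with the same spread in every library, so no pair diverged as the Day 12 P-IWP2 pair does.

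The regulators and lists were chosen with earlier results of these data known. Named genes are the 10 regulators; from each list of partners or targets, up to 2 largest rises and 2 largest falls among genes called in P-DF on Day 16; the 3 genes most like PPARGC1A, ESRRA and ESRRG; and the most abundant markers. A gene that this rule names is not reported here. LIN28A is the second most abundant pluripotency marker. Promoters are from RefSeq (GRCh38.p14).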

Additional observations from a re-analysis of the deposited data

How the results depend on the processing

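The number of regulators called changed with the alternatives, and so did the share of all genes called, given in parentheses. Without the filter on low counts it was 3 in Day 12 P-DF (7.70%), 5 in Day 16 P-DF (11.6%), 4 in Day 16 P-IWP2 (12.3%), 2 over time in NP-IWP2 (5.07%), 3 over time in P-DF (9.50%) and 2 for the P-IWP2 interaction (6.77%). DESeq2 called 2 in Day 12 P-DF (8.38%), 3 in Day 16 P-DF (18.4%) and 3 in Day 16 P-IWP2 (20.1%). Over time it called 1 in P-DF (19.3%) and 3 in P-IWP2 (28.5%). With voom quality weights the numbers were 5 (29.0%), 6 (37.5%) and 4 (27.8%) in Day 12 P-DF, Day 16 P-DF and Day 16 P-IWP2, and 5 (27.0%), 3 (33.4%) and 0 (5.11%) over time in NP-IWP2, P-DF and P-IWP2. With only the groups compared they were 5 (29.8%), 6 (40.1%) and 4 (29.2%), then 5 (28.3%), 5 (37.3%) and 0 (0%), and 1 (12.6%) for the P-DF interaction. With total counts they were 1 (1.91%), 3 (16.4%) and 5 (37.8%) over time, and with limma on log2(FPKM + 1) 1 (3.20%), 4 (19.3%) and 5 (39.0%). The limma fit on log2(FPKM + 1) also called 3 in Day 16 P-IWP2 (21.6%). With single libraries left out the number ran from 0 to 5 in Day 12 P-DF, 0 to 6 in Day 16 P-DF, 0 to 4 in Day 12 P-IWP2, 1 to 6 in Day 16 P-IWP2, 0 to 1 between P-IWP2 and P-DF, 0 to 5, 0 to 4 and 0 to 4 over time in NP-IWP2, P-DF and P-IWP2, and 0 to 6 for the P-IWP2 interaction; the highest values came from leaving out Day 12 P-IWP2 replicate 5 or 6. In Day 16 P-DF either omission raised the share of all genes called, to 32.4% and 31.9%, and the 6 in the interaction came without replicate 6 (29.3%). The cause was not tested.

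ESRRA and ESRRB on Day 16 kept their direction under every alternative run. With total counts, log2 fold changes that changed sign were TFAM in Day 16 P-DF (-0.03), PPARA (-0.18) and ESRRG (-0.02) in Day 16 P-IWP2, NRF1 between P-IWP2 and P-DF (-0.02), ESRRA (-0.19), TFAM (-0.25) and PPARD (0.00) over time in P-DF, PPARGC1A (-0.11) and TFAM (-0.07) in the P-DF interaction and PPARD (-0.21) in the P-IWP2 interaction. With limma on log2(FPKM + 1) they were TFAM in Day 16 P-DF (-0.03), PPARA (-0.14) and ESRRG (-0.01) in Day 16 P-IWP2, NRF1 between P-IWP2 and P-DF (-0.01), ESRRA (-0.18) and TFAM (-0.23) over time in P-DF, PPARGC1A (-0.11) and TFAM (-0.07) in the P-DF interaction and PPARD (-0.18) in the P-IWP2 interaction. PPARGC1A between P-IWP2 and P-DF was 0.01 with RLE scaling, without the filter and in DESeq2, and TFAM over time in P-DF was 0.00 with only the groups compared.

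With single libraries left out, values that crossed 0 were, in Day 12 P-DF, NRF1 (-0.21 to 0.09). In Day 12 P-IWP2 they were TFAM (-0.13 to 0.18), NRF1 (-0.19 to 0.11), PPARGC1B (-2.46 to 0.05), PPARGC1A (-0.14 to 0.53), ESRRB (-0.49 to 1.01) and ESRRG (-0.25 to 0.83). In Day 16 P-IWP2 they were PPARA (-0.08 to 0.30) and TFAM (-0.09 to 0.05), and between P-IWP2 and P-DF, PPARGC1A (-0.06 to 0.07) and NRF1 (-0.06 to 0.13). Over time they were ESRRB (-0.51 to 0.28), NRF1 (-0.23 to 0.07) and TFAM (-0.14 to 0.02) in NP-IWP2, TFAM (-0.03 to 0.06) in P-DF, and PPARGC1B (-0.31 to 2.21), PPARGC1A (-0.54 to 0.13), PPARA (-0.41 to 0.17), ESRRG (-0.98 to 0.10) and TFAM (-0.26 to 0.06) in P-IWP2. In the P-DF interaction they were PPARGC1A (-0.06 to 0.15), TFAM (-0.01 to 0.15) and PPARD (-0.23 to 0.01), and in the P-IWP2 interaction TFAM (-0.20 to 0.12), NRF1 (-0.29 to 0.00), PPARD (-0.07 to 0.28) and ESRRG (-0.57 to 0.51).

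Same-numbered libraries of the 2 days did not deviate together (correlations of deviations from the group means of 0.0754, -0.00154 and -0.0310 for the 3 pairs of numbers), so the numbers were not taken as pairing the samples. With a replicate block, 0, 0 and 2 regulators were called over time in NP-IWP2, P-DF and P-IWP2, and 0 in both interactions; ESRRA over time in P-IWP2 had an adjusted p of 0.0527. With 2 libraries a group, the power is low, and PERM1 could not be tested.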
